A study of Mus musculus with 10 samples.

Results

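The 8 genes Mgam, Cyp2f2, S100g, Nepn, Adamdec1, Pmch, Cox7a1 and Jakmip2 were followed in the mouse embryo at 15 dpc (days post coitum), through gallbladder and cystic duct. They are 8 of 18194 genes on the array and were chosen by their array signals, which were lower in Sox17+/- gallbladder than in wild type gallbladder of both strains studied. That fall describes the choice and was not tested here. The samples left out of the choice were those of cystic duct, through which the gallbladder empties. Differences between strains were also tested, but in gallbladder samples that served in the choice. The 8 genes were read by 10 of the 34958 probe sets that map to 1 gene, where a probe set is a group of short oligonucleotides on an Affymetrix array. Of these 10, 8 passed a filter on dim probe sets, 1 for each gene, and stood among the 24470 probe sets tested.

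The 10 samples formed 5 groups of 2 biological replicates, all of total RNA. Sox17+/- gallbladder, wild type cystic duct and wild type gallbladder came from ICR, an outbred stock, and Sox17+/- gallbladder and wild type gallbladder came from C57BL/6 (B6), an inbred strain. No Sox17+/- cystic duct and no B6 cystic duct were analysed here. The labels name the Sox17+/- genotype without describing the altered allele, and no label says how many embryos went into a sample, so that p values measure the spread between these samples only. Signals are on a log2 scale after quantile normalization, where 1 unit is a doubling.

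Precision is limited by the number of arrays. Among gallbladders, the replicate pairs had r = 0.960 to 0.995 over the probe sets tested. The cystic duct pair correlated at r = 0.889, and 25.6% of probe sets lay over 1 log2 unit apart between its samples, against 0.119% to 4.52% in the gallbladder pairs. Cystic duct sample 2 also had the narrowest interquartile range as deposited, 2.75 log2 units against 3.46 to 3.85 in the other 9 samples.

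The protein made from Sox17 is an endodermal transcription factor on which the gallbladder primordium depends in the mouse. Endoderm forms the lining of the gut, liver, pancreas and bile ducts. The gallbladder and the cystic duct grow from the same bud: the gallbladder becomes a muscular storage sac, and the cystic duct a narrow tube. The 8 genes do not form a pathway. Mgam encodes maltase-glucoamylase, a starch-digesting enzyme anchored in the brush border of the small intestine. Cyp2f2 encodes a cytochrome P450 best known from club cells of the mouse airway, where it oxidizes inhaled aromatic compounds. S100g encodes calbindin-D9k, a small calcium-binding protein that vitamin D induces in intestinal epithelium. Nepn encodes nephrocan, a secreted leucine-rich repeat protein of the embryonic gut endoderm, and Adamdec1 a secreted metalloprotease of the ADAM type known from the gut and from macrophages. Pmch encodes the precursor of melanin-concentrating hormone, a neuropeptide of the hypothalamus. Cox7a1 encodes the muscle and heart form of subunit VIIa of cytochrome c oxidase, the last enzyme of the respiratory chain, and Jakmip2 a coiled-coil protein best known from neural tissue.

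Promoter sequences are shown for Pmch, S100g, Nepn and Cox7a1, which are the genes that were called lower in cystic duct below and that have an entry in the RefSeq promoter table (build GRCm38.p6). Each sequence runs 5′ to 3′ on the strand of its gene, from 250 bases before its start to 50 bases after it, and positions are counted from 0 at that start. The start listed for Nepn lies inside the span of the gene given below. Capitals mark matches, on either strand, to ACAAT, a core that SOX factors bind, and to a GATA site spelled AGATAA.
Pmch (chr10:88090822-88091121, plus strand): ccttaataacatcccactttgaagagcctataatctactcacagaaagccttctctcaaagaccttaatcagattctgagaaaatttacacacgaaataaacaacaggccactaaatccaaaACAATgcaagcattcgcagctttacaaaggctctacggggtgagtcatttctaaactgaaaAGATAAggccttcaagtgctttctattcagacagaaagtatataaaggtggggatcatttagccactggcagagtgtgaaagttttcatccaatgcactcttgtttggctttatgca
S100g (chrX:162964550-162964849, minus strand): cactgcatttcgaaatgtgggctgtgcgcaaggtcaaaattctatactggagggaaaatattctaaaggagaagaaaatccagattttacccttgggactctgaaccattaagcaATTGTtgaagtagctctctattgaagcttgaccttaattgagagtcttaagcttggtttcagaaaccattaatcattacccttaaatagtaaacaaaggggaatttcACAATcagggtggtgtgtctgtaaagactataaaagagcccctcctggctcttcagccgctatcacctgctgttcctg
Nepn (chr10:52391358-52391657, plus strand): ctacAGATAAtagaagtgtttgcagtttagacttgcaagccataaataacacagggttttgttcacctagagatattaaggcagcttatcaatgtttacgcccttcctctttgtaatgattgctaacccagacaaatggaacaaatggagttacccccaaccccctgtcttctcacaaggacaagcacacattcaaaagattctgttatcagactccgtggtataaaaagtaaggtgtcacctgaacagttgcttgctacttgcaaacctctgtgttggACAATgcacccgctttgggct
Cox7a1 (chr7:30183921-30184220, plus strand): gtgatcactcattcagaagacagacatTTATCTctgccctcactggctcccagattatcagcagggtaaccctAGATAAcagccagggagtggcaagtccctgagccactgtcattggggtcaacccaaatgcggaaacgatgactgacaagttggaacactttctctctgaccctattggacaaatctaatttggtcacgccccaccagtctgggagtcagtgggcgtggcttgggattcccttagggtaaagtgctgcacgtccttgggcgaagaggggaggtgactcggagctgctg
Pmch had 1 match to the SOX core at position -128 from its start and 1 GATA match at -67. S100g had SOX core matches at -135 and -28. Nepn had a GATA match at -246 and a SOX core match at 29, inside the transcribed part, and Cox7a1 had GATA matches at -223 and -177 and none to the SOX core. Over the 6 genes with a promoter entry, which add Mgam and Cyp2f2 to the 4 shown, the SOX core occurred on either strand in 4 promoters, against 31.6% of all 27025 promoters in the table. The GATA site occurred in 4 of the 6, against 11.4% of all promoters. Neither GTTAAT, a core of HNF1 sites that occurs in 7.2% of promoters, nor GACCACCCA, a GLI site that occurs in 0.244%, was found in the 6 windows. The searched motifs do not overlap one another in these windows. GC content of the 6 windows lay between 39.0% (Pmch) and 53.0% (Cox7a1), against a median of 52.7% over all promoters. Letter matches of this kind are descriptions of sequence, and no binding was measured here.

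In both strains all 8 genes lay lower in the 2 Sox17+/- gallbladders than in the 2 wild type gallbladders, without overlap. By the choice of genes this had to be so. Across the array, 6.33% of probe sets tested were separated in this way in both strains, and 0.119% (29 probe sets) were also lower by over 1 log2 unit in both. The 8 genes are among those 29, at ranks 3 to 13 by the mean of both differences, and Shh, Cited1, Adcy8, Hhip and Sox17, which fill the other places down to rank 13, are not of the 8. Adamdec1, at a mean difference of -1.51, was the one nearest to the edge of the choice among the 8, and the next probe set down the order, for Slc14a1, stood at -1.50. Many Sox17+/- and cystic duct signals of the 8 lay under 4.82, the level of the filter on mean signal. No detection call was used here, so a fold against such a dim value describes array signal, which is not shown to be above background, and it may understate the difference in transcript. In bulk tissue, fewer cells of a type and less RNA per cell cannot be told apart.

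Among the genes named for epithelium of gut and airway, Mgam (chr6:40628831-40769123) read 4.73 and 5.83 in Sox17+/- and 7.08 and 7.45 in wild type gallbladder of ICR. In B6 it read 5.33 and 5.59 in Sox17+/- and 8.23 and 8.11 in wild type gallbladder. The array signal for the enzyme was thus 3.97-fold lower in ICR and 6.56-fold lower in B6, and the B6 wild type samples were the highest of all 10.

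Cyp2f2 (chr7:27119955-27133660) read 4.74 and 4.71 in Sox17+/- and 6.65 and 6.49 in wild type gallbladder of ICR, a 3.59-fold lower signal. In B6 it read 5.19 in each Sox17+/- sample and 7.34 and 6.89 in wild type gallbladder, a 3.82-fold lower signal. Among the gallbladder groups, the replicates of this P450 lay closest in B6 Sox17+/- and farthest apart in B6 wild type.

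S100g (chrX:162961992-162964599) read 5.02 and 5.27 in Sox17+/- and 6.56 and 7.42 in wild type gallbladder of ICR, and was 3.59-fold lower. In B6 it read 4.62 and 4.36 in Sox17+/- and 6.49 and 6.24 in wild type gallbladder, and was 3.67-fold lower. The fold was nearly the same in both strains for this calcium-binding protein, while ICR wild type sample 2 stood well above the other 3 wild type gallbladders.

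Of the secreted proteins, Nepn (chr10:52388864-52404611) read 4.64 and 4.96 in Sox17+/- and 6.69 and 7.66 in wild type gallbladder of ICR, a 5.20-fold lower signal. In B6 it read only 3.79 and 4.46 in Sox17+/- and 5.24 and 5.25 in wild type gallbladder, a 2.18-fold lower signal. Both B6 groups thus sat below their ICR counterparts for this gut endoderm gene.

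Adamdec1 (chr14:68563387-68582072) read 7.52 and 7.24 in Sox17+/- and 8.64 and 9.12 in wild type gallbladder of ICR, 2.82-fold lower, and 6.62 and 6.65 in Sox17+/- and 8.53 and 7.78 in wild type gallbladder of B6, 2.87-fold lower. The fold of the metalloprotease was nearly equal in both strains, and its B6 Sox17+/- samples were only 0.03 apart.

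Pmch (chr10:88091072-88092374) read 4.34 and 4.51 in Sox17+/- and 6.12 and 6.75 in wild type gallbladder of ICR, and was 4.02-fold lower. In B6 it read 4.66 and 4.49 in Sox17+/- and 7.18 and 6.25 in wild type gallbladder, and was 4.41-fold lower. The 4 Sox17+/- samples of this hormone precursor spanned 4.34 to 4.66, a range smaller than the gap within either wild type pair.

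Cox7a1 (chr7:30184171-30186030) read 5.95 and 6.05 in Sox17+/- and 7.66 and 7.74 in wild type gallbladder of ICR, 3.24-fold lower. In B6 it read 5.93 and 5.86 in Sox17+/- and 7.41 and 7.05 in wild type gallbladder, 2.52-fold lower. Skeletal and cardiac muscle markers were set beside this muscle form of the subunit. The summed signal of 13 skeletal muscle markers was 12.70 in B6 Sox17+/- sample 3, against 9.26 to 10.12 in the other 9 samples, and that of 10 cardiac markers was 11.86 in ICR wild type sample 2 and 11.09 in B6 Sox17+/- sample 3, against 8.82 to 10.03 in the other 8. Cox7a1 itself differed by 0.06 between the B6 Sox17+/- samples and by 0.08 between the ICR wild type samples. The part of muscle in the Cox7a1 values was not tested.

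Jakmip2, on chromosome 18, was the least evenly measured gene. Its brightest probe set read 4.26 and 4.33 in Sox17+/- and 5.61 and 5.74 in wild type gallbladder of ICR, 2.60-fold lower, and 4.45 and 4.92 in Sox17+/- and 6.52 and 6.49 in wild type gallbladder of B6, 3.53-fold lower. The other 2 probe sets of the gene lay between 2.64 and 4.27 in all 10 samples and were too dim to pass the filter. Neither of these was lower in Sox17+/- gallbladder without overlap in both strains, so the Jakmip2 values rest on 1 of 3 probe sets. In the less dim of these 2 the ICR samples read 3.50 and 3.39 in Sox17+/- and 3.09 and 3.58 in wild type gallbladder, which overlap. Its B6 samples read 3.19 and 3.29 in Sox17+/- and 3.92 and 3.63 in wild type gallbladder, lower without overlap but all dim.

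**Figure D1:**
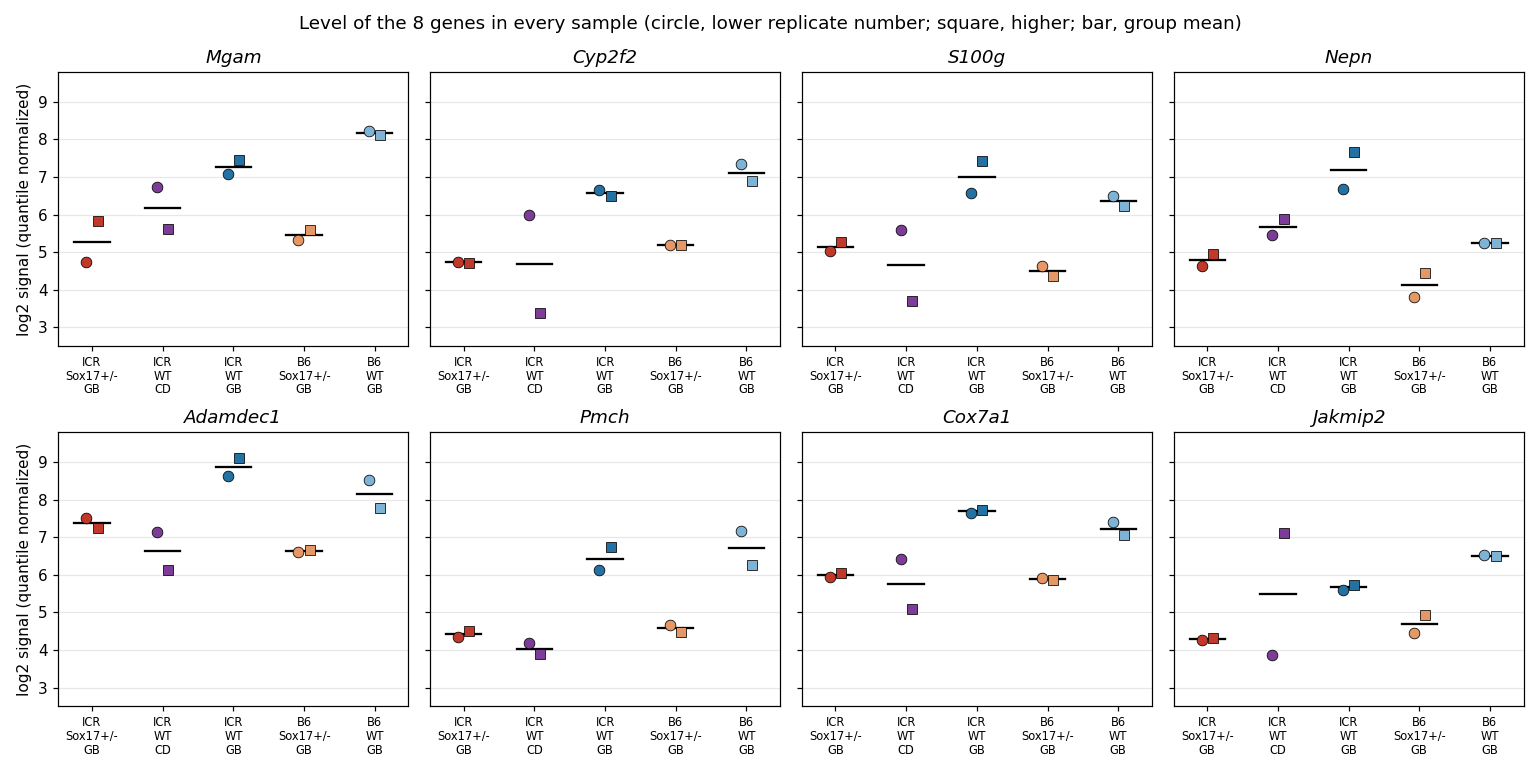
Log2 signal of the 8 genes, 1 panel each, in every sample of the 5 groups; points are samples and bars are group means. All Sox17+/- gallbladder points lie below the wild type gallbladder points of their strain, and the 2 cystic duct points of Jakmip2 lie 3.26 log2 units apart.

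The next question was whether the wild type cystic duct, which keeps both copies of Sox17, is low in the same genes. In ICR, 7 of the 8 genes had both cystic duct samples below both wild type gallbladder samples, against 29.0% of all probe sets tested, and Jakmip2 was the exception. For Pmch, Adamdec1 and Cox7a1 the samples were separated by over 1 log2 unit, against 1.92% of probe sets. In limma's fit over all 10 samples, 5 of the 8 fell in cystic duct at a Benjamini-Hochberg adjusted p under 0.05: Pmch, S100g, Adamdec1, Cox7a1 and Nepn. The same fit called 7.14% of all probe sets lower in cystic duct and 4.02% higher. Low cystic duct signal was not particular to these genes. Of the other genes down to rank 13 of the fall, Shh (-2.94), Cited1 (-2.34), Hhip (-1.69) and Sox17 (-1.70) were also called lower. In each of them both cystic duct samples were below both wild type gallbladder samples, and Adcy8 (-0.23) met neither condition. The wild type ICR gallbladder samples in this contrast also helped to choose the genes, so genes that happened to be high in them were favoured, and the counts are not an independent test of the choice.

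Pmch read 4.17 and 3.89 in cystic duct against 6.12 and 6.75 in wild type gallbladder, a difference of -2.40 log2 (SE 0.340) or 5.29-fold lower in array signal (limma, adjusted p = 0.00647). Both cystic duct values are among the dim ones under 4.82, so the fold is not an exact ratio of transcript. Outside wild type gallbladder the group means of Pmch were 4.03 to 4.58. It thus passed the filter only through wild type gallbladder of the strains, the ICR part of which it is set against here. With no filter its adjusted p was 0.00798 (limma). Its lowest gallbladder sample stood 1.95 units above its highest cystic duct sample, the widest gap of the 8, and its cystic duct samples lay closer together than those of any other of the 8.

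S100g read 5.60 and 3.71 in cystic duct against 6.56 and 7.42 in wild type gallbladder, 5.06-fold lower with a 95% interval of -3.63 to -1.05 log2 (limma, adjusted p = 0.0360). The cystic duct value of 3.71 is among the dim ones under 4.82. Group means of S100g were 5.15 in ICR Sox17+/- gallbladder, 4.65 in cystic duct and 4.49 in B6 Sox17+/- gallbladder, on average under 4.82. S100g thus also passed the filter only through wild type gallbladder, and with no filter its adjusted p was 0.0442 (limma). Adamdec1 read 7.15 and 6.12 in cystic duct against 8.64 and 9.12 in wild type gallbladder, 4.72-fold lower with an interval of -3.12 to -1.36 (limma, adjusted p = 0.0121). Both groups were clearly apart for the metalloprotease, by 1.49 units at the nearest, and by 0.96 for the calcium-binding protein.

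Cox7a1 read 6.41 and 5.08 in cystic duct against 7.66 and 7.74 in wild type gallbladder, a 3.86-fold lower signal (limma, adjusted p = 0.0201; SE 0.390 log2). Nepn read 5.45 and 5.89 in cystic duct against 6.69 and 7.66 in wild type gallbladder, a 2.84-fold lower signal (limma, adjusted p = 0.0381; SE 0.367 log2). Nepn was the only one of these 5 whose cystic duct sample 2 was above sample 1.

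Cyp2f2 read 5.99 and 3.38 in cystic duct against 6.65 and 6.49 in wild type gallbladder, and its difference of -1.89 log2 had an interval of -3.47 to -0.30 and did not pass (limma, adjusted p = 0.117). Mgam read 6.73 and 5.61 in cystic duct against 7.08 and 7.45 in wild type gallbladder, a difference of -1.10 with an interval of -2.13 to -0.07 that did not pass either (limma, adjusted p = 0.150). For both genes cystic duct sample 1 was within 0.50 log2 units of a gallbladder sample and sample 2 was far lower. Jakmip2 read 3.86 in cystic duct sample 1 and 7.12 in sample 2, one below and the other above the gallbladder values of 5.61 and 5.74, so that its mean difference of -0.19 (interval -2.13 to 1.75) describes neither sample.

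**Figure D2:**
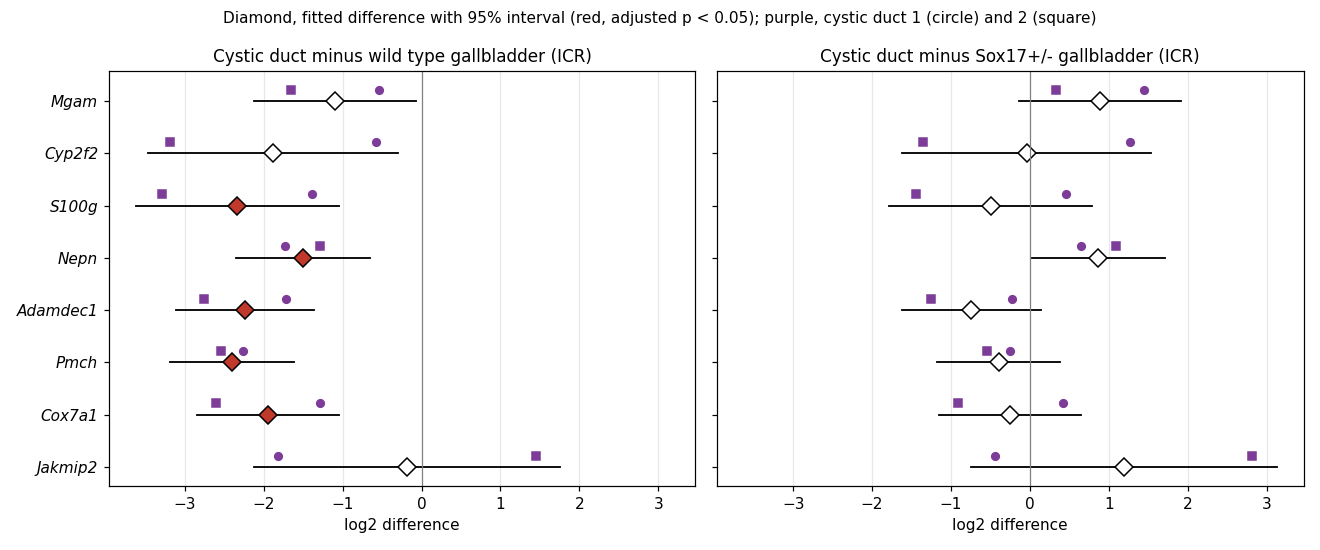
Cystic duct minus wild type gallbladder (left) and cystic duct minus Sox17+/- gallbladder (right) in ICR, log2 units, for the 8 genes; diamonds are fitted differences with 95% intervals, red where the adjusted p is under 0.05, and the circle and square give cystic duct samples 1 and 2. Pmch, S100g, Nepn, Adamdec1 and Cox7a1 are red on the left, and none is red on the right.

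These calls lean on the spread pooled over 5 groups and on the single libraries. In the fit of only the 2 groups compared, and in a fit with array weights, limma called 0 of the 8 and 0 probe sets lower. At an unadjusted p under 0.05 the count was 5 of the 8 in each of these fits. Across the array 1972 and 1847 probe sets were lower at that level, against 4437 in the main fit of 24470. When each sample was left out in turn, Pmch passed in all 10 fits, Adamdec1 in 9, Cox7a1 in 8, Nepn in 3 and S100g in 2. Adamdec1 was lost without ICR wild type sample 2 (limma, adjusted p = 0.0612), and Cox7a1 without ICR wild type sample 1 or 2 (0.0895 and 0.0844). The number of the 8 genes called was 8 without cystic duct sample 1, where Jakmip2 was called higher at 1.44, and 6 without cystic duct sample 2, where Jakmip2 was called lower at -1.86. It was 3 without ICR wild type sample 1, 1 (Pmch) without ICR wild type sample 2, and 3 without any single one of the other 6 samples. Calls moved across the array too: 7010 probe sets were called lower without cystic duct sample 1, 3539 without cystic duct sample 2, 406 without ICR wild type sample 1 and 549 without ICR wild type sample 2, against 1746 with all samples.

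Markers of other tissues moved strongly in the same contrast. Of 17 hepatocyte genes, 15 rose in cystic duct with a median of 3.49 log2, and their summed signal was 17.53 and 17.02 in cystic duct against 15.29 and 14.76 in wild type gallbladder. Apoa2, an apolipoprotein of liver, was 5.26 log2 units higher (limma, adjusted p = 0.00581). Of 6 erythroid genes, 4 rose, with a median of 2.68. Smooth muscle went the other way: 7 of 14 genes fell, with a median of -1.51, among them Myh11, the smooth muscle myosin heavy chain, at -2.67, and the summed signal was 11.81 and 12.72 in cystic duct against 13.94 and 13.84 in wild type gallbladder. All 17 hepatocyte and all 14 smooth muscle genes lay above the 30th percentile of the array in every gallbladder sample. The part of these tissues in the cystic duct values of the 8 genes was not tested.

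Epithelium was read by 22 tested genes of biliary and simple epithelium. Of these, 2 fell (Krt19 and Muc1) and 2 rose (Krt18 and Aqp1) in cystic duct, with a median of 0.16, against -0.04 over the 13762 genes read in this way. The summed signal of the 23 genes of this list on the array was 14.10 and 14.12 in cystic duct against 13.98 and 14.05 in wild type gallbladder. Epcam, a surface protein of most simple epithelia, differed by -0.53 (limma, adjusted p = 0.171). Measured beside these, the 5 called genes lay at -2.40 to -1.51. In Sox17+/- against wild type gallbladder the same epithelial genes had a median of 0.10 in ICR and 0.01 in B6, where the 8 genes lay at -2.71 to -1.12. Hepatocyte genes had a median of 1.28 in ICR and 0.17 in B6 in that comparison, and their summed signal did not overlap between Sox17+/- (16.04 and 15.66) and wild type gallbladder (15.29 and 14.76) of ICR but did in B6. Smooth muscle genes had medians of -0.28 in ICR and -0.25 in B6. Their summed signal was lower without overlap in both strains, at 13.80 in each Sox17+/- sample against 13.94 and 13.84 in wild type gallbladder of ICR, and at 13.61 and 13.44 in Sox17+/- against 13.91 and 13.66 in wild type gallbladder of B6. Skeletal muscle genes had medians of 0.60 in ICR and 1.75 in B6. The part of these tissues in the fall of the 8 genes was not tested.

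Set against Sox17+/- gallbladder in place of wild type, cystic duct passed for 0 of the 8 genes, where limma called 4.39% of all probe sets in either direction. At an unadjusted p under 0.05 the count was 1 of 8 (Nepn), against 22.6% of probe sets. The Sox17+/- samples chose the genes as low, so the differences, intervals and p values of this comparison are all shaped by the choice. The intervals also pool the spread of the closer gallbladder pairs, and they are given below as description only.

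Adamdec1, S100g, Pmch and Cox7a1 had fitted differences below 0 with intervals that include 0. Adamdec1 differed by -0.74 with an interval of -1.62 to 0.14, and both cystic duct samples (7.15 and 6.12) were below both Sox17+/- samples (7.52 and 7.24). Pmch differed by -0.40 (interval -1.18 to 0.39), but its signals in both groups lay under 4.82, where an order between dim readings shows little about transcript. S100g differed by -0.49 (interval -1.78 to 0.79) and Cox7a1 by -0.25 (interval -1.15 to 0.65), each with a cystic duct sample on either side of the Sox17+/- values.

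Nepn was 0.87 higher in cystic duct than in Sox17+/- gallbladder (interval 0.02 to 1.72; limma, adjusted p = 0.211), with cystic duct samples at 5.45 and 5.89 above Sox17+/- samples at 4.64 and 4.96, an order that 18.0% of probe sets shared. Its cystic duct values were thus between those of Sox17+/- and wild type gallbladder, with no overlap on either side. Mgam differed by 0.89 (interval -0.14 to 1.92), and its cystic duct values of 6.73 and 5.61 overlapped the Sox17+/- values of 4.73 and 5.83. Cyp2f2 differed by -0.04, but its interval of -1.62 to 1.54 is over 3 log2 units wide. Jakmip2 differed by 1.19 (interval -0.75 to 3.13), from cystic duct samples on either side of the Sox17+/- values.

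Cystic duct sample 2 was below sample 1 for 6 of the 8 genes, against 52.5% of all probe sets. Sample 2 minus sample 1 was -2.61 log2 units in Cyp2f2, -1.90 in S100g, -1.33 in Cox7a1, -1.12 in Mgam and -1.03 in Adamdec1, where 15.3% of all probe sets were lower in sample 2 by over 1 unit. Pmch (-0.29) and Nepn (0.45) had the closest cystic duct pairs of the 8. Leaving out cystic duct sample 2 moved the difference from Sox17+/- gallbladder of Cyp2f2 to 1.30, and leaving out sample 1 moved it to -1.34.

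The strains were compared in wild type gallbladder, where the choice of genes did not fix a direction. The same samples helped to choose the genes, so these tests are not independent of the choice. Nepn was 3.81-fold lower in B6 (5.24 and 5.25) than in ICR (6.69 and 7.66), a difference of -1.93 log2 with an interval of -2.78 to -1.08 (limma, adjusted p = 0.0397). It was the only one of the 8 to pass, where limma called 2.66% of all probe sets in either direction. The Nepn call was lost without either of the ICR wild type samples (adjusted p = 0.0772 without sample 1 and 0.0876 without sample 2, limma), either ICR Sox17+/- sample (0.0825 and 0.0830) or either B6 wild type sample (0.238 without sample 3 and 0.303 without sample 4), with differences of -2.43 to -1.44.

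None of the other 7 passed, although 6 of them had wild type samples of the strains that did not overlap. Mgam was higher in B6 by 0.91, Jakmip2 by 0.83 and Cyp2f2 by 0.55, while B6 minus ICR was -0.72 in Adamdec1, -0.63 in S100g and -0.47 in Cox7a1. Across the array, 33.8% of probe sets had both B6 samples above both ICR samples and 27.6% had both below, so separation of this kind is common. The 2 strains overlapped for Pmch, with 7.18 and 6.25 in B6 and 6.12 and 6.75 in ICR. With the 8 gallbladder samples fitted alone, an alternative chosen after seeing the data, Nepn stood at -1.99 (limma, adjusted p = 0.0199) and Jakmip2 at 0.86 passed as well (limma, adjusted p = 0.0294). Calls rose across the array in that fit, to 2502 probe sets against 651 with all 10 samples.

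The size of the Sox17+/- fall was set against strain by an interaction term. The term is built from the same falls that chose the genes, and a fall in both strains was required, so likeness between the strains was favoured by the choice. No gene of the 8 and no probe set on the array passed in limma, and 300 probe sets (1.23%) had an unadjusted p under 0.05, Nepn among them (0.0421). The Nepn fall was smaller in B6 by 1.25 log2 units (interval 0.06 to 2.45; limma, adjusted p = 1), and its wild type level was lower there. The Mgam fall was larger in B6, with a signed difference of -0.73 (interval -2.18 to 0.73), and the other 6 genes differed by -0.44 to 0.36.

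**Figure D3:**
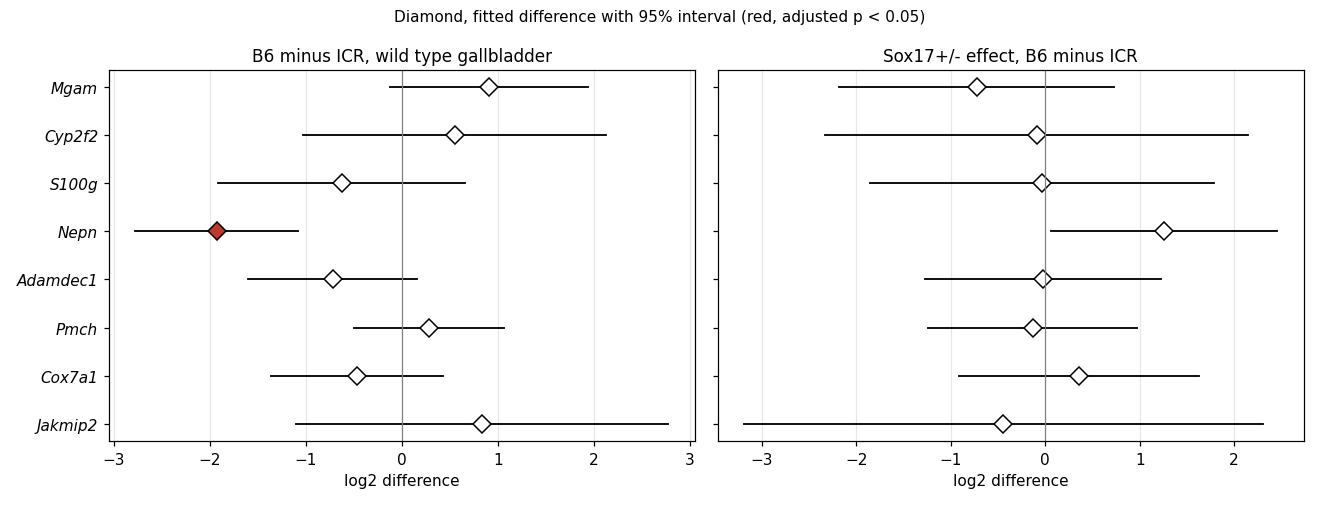
B6 minus ICR in wild type gallbladder (left) and B6 minus ICR difference of the Sox17+/- effects (right), log2 units, for the 8 genes; diamonds are fitted differences and lines 95% intervals. Nepn at -1.93 on the left is the only value whose adjusted p is under 0.05 (red).

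Genes that work with the 8, or that mark the tissues they are known from, were read in the same samples. Lactase (Lct), a brush border enzyme like Mgam, lay between 3.08 and 4.14 in all 10 samples and did not pass the filter. Of 14 tested brush border genes of the intestine, 0 fell in cystic duct and 2 rose, Cdhr2, a brush border protocadherin, at 3.04 and Tff3, a goblet cell trefoil peptide, at 2.80, with a list median of 0.41. Their medians were 0.25 in ICR and 0.11 in B6 for Sox17+/- against wild type gallbladder, where Mgam lay at -1.99 and -2.71, and the list held genes on both sides of 0 in each strain.

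For S100g, the vitamin D receptor Vdr differed by 0.29 in cystic duct (limma, adjusted p = 0.616), and it stood 0.54 higher in ICR and 0.64 higher in B6 in Sox17+/- than in wild type gallbladder. Of the 7 tested genes of vitamin D action and calcium transport, 0 passed in either direction. Of 12 tested genes listed under the S100 family, 2 fell in cystic duct, S100a6 at -1.28 and S100a4 at -0.995. Only 1 rose, the neutrophil protein gene S100a9 at 3.60, and the list median was -0.47. The list includes S100pbp, which is not itself an S100 gene. In Sox17+/- against wild type gallbladder S100a6 and S100a4 lay between -0.12 and 0.06 in both strains.

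Around Cyp2f2, 15 tested genes of club cells and airway secretion included 2 that fell in cystic duct, Aldh1a1, a retinaldehyde dehydrogenase, at -1.51 and the P450 gene Cyp2s1 at -1.28 (limma, adjusted p = 0.0262), and 0 that rose. Their list median was 0.13. Among 5 tested neighbours of Cyp2f2 in its gene cluster, Cyp2s1 fell and Cyp2a12, a P450 of liver, rose by 2.83. Cyp2s1 differed by -0.25 in ICR and -0.18 in B6 between Sox17+/- and wild type gallbladder, where Cyp2f2 lay at -1.84 and -1.93.

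For Nepn, small leucine-rich proteoglycans of the matrix were read: 4 of 10 fell in cystic duct and 0 rose, with a median of -0.71, among them Aspn (asporin) at -3.06 and Ogn (osteoglycin) at -1.79. For Adamdec1, 4 of 14 genes of ADAM and ADAMTS proteases fell, and 0 rose, with a median of -0.58. Those that fell were Adam19 at -1.66, Adam9 at -0.87, Adamts5 at -0.89 and Adamts1 at -0.70. Adam28, a neighbour of Adamdec1 in the same protease branch, differed by 0.12. Both list medians were below the -0.04 of all genes in cystic duct, and both lay between -0.04 and 0.02 in the Sox17+/- comparisons.

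The receptor of melanin-concentrating hormone, Mchr1, lay between 5.66 and 6.11 in all samples and differed by 0.11 in cystic duct (limma, adjusted p = 0.757), while its ligand's gene Pmch lay at -2.40. Of 14 tested neuropeptide and hypothalamic genes, only Nts, the neurotensin precursor, fell in cystic duct, at -2.38, and 0 rose. Nts lay at -0.19 in ICR and 0.34 in B6 between Sox17+/- and wild type gallbladder.

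The liver and general form of the subunit that Cox7a1 encodes, Cox7a2, had signals of 12.60 to 13.38 in all samples and differed by -0.16 in cystic duct (limma, adjusted p = 0.663) and by -0.20 in ICR and -0.10 in B6 between Sox17+/- and wild type gallbladder. Of 14 tested genes listed with the cytochrome c oxidase subunits, Cox7a2 and the related Cox7a2l among them, 0 fell in cystic duct. Cox6a1 at 1.49 and Cox4i1 at 0.45 were the 2 that rose, and the list median was 0.04. Cox8b, another muscle and brown fat form, differed by -1.05 (limma, adjusted p = 0.0673). Of the Jakmip2 paralogs, Jakmip1 lay between 4.03 and 4.82 and Jakmip3 between 3.44 and 5.09, both under the filter, and the highest Jakmip3 value was that of cystic duct sample 2, the sample in which Jakmip2 was also highest. Of 7 tested neural and neural crest genes, 1 fell in cystic duct (Gap43 at -1.34), and the summed signal of the 8 on the array was 9.87 and 10.47 in cystic duct against 10.49 and 9.95 in wild type gallbladder.

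**Figure D4:**
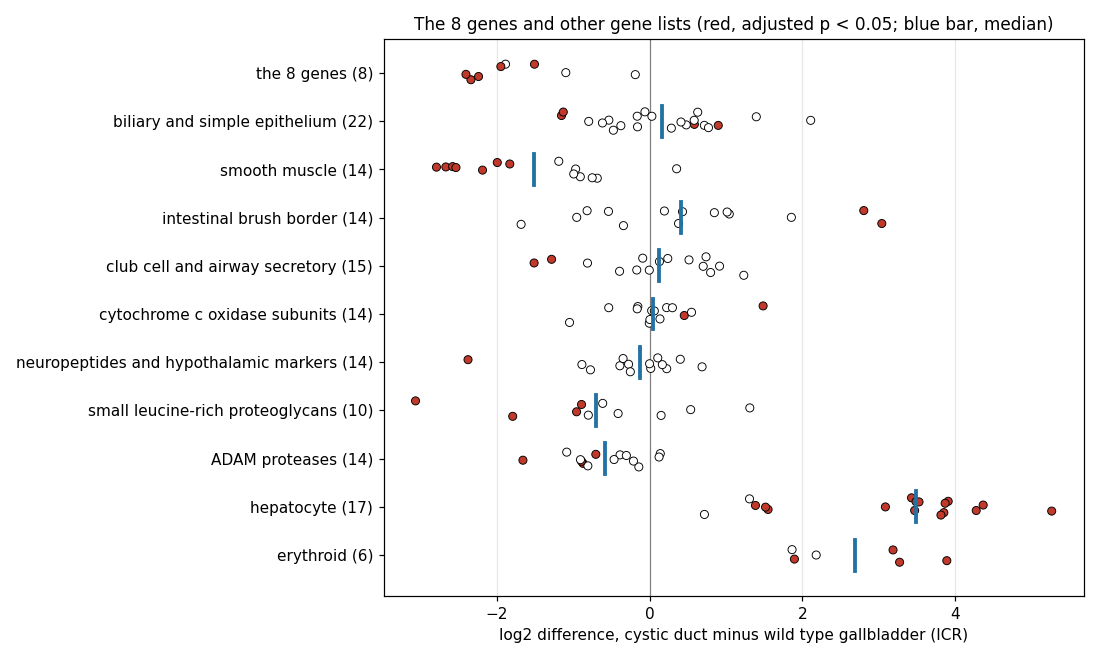
Cystic duct minus wild type gallbladder in ICR, log2 units, for the 8 genes and 10 gene lists (tested genes in brackets); circles are genes, red where the adjusted p is under 0.05, and blue bars are list medians. Hepatocyte genes have a median of 3.49 and smooth muscle genes one of -1.51.

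Sox17 itself, read by the probe set that stands for the gene, differed by -1.43 in cystic duct (limma, adjusted p = 0.0114). Between Sox17+/- and wild type gallbladder it differed by -1.61 in ICR and -1.19 in B6. The -1.70 given for Sox17 above came from another probe set, of a cross-hybridizing type. As a description of likeness, the genes with the nearest pattern to each of the 8 were taken by Pearson's r over the 10 samples, among 3096 genes whose group means spanned at least 1 log2 unit. Samples of a group and array normalization are shared by all such pairs, and no p was computed. Since the 8 were chosen for their fall in Sox17+/- gallbladder, a high r with other genes that fell there, such as Sox17, Cited1 and Adcy8, is largely set by the choice. S100g, Adamdec1 and Cox7a1 were each among the 3 nearest to one another, at r = 0.953 to 0.972. Sox17 was among the 3 nearest to Cox7a1 (0.962) and to Mgam (0.887). Cyp2f2 was nearest to Cers6, a ceramide synthase (0.957), and Pmch to Tnfaip3, which encodes the NF-kappa-B regulator A20 (0.952). Nepn was nearest to Angptl6 (0.950), Mgam to the transcriptional coregulator gene Cited1 (0.911), and Jakmip2 to the adenylate cyclase gene Adcy8 (0.885), the lowest of the 8 first neighbours.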

How the data were processed

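Values were deposited as log2 signals for each probe set, per the labels; how the authors corrected background and normalized is not given in the sources used here. Per the labels' protocols, Trizol-extracted total RNA was made into biotinylated cRNA. Groups came from titles and label fields, where the tags for stage and genotype are swapped. Of 45101 probe sets, 64 controls were left out, and 34958 have 1 gene in the platform table, 932 several and 9147 none; gene names of 34754 were found in the GRCm38.p6 gene table and 204 were not.

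Samples were quantile normalized. The filter kept probe sets whose mean log2 signal reached the 30th percentile (4.82). limma 3.58.1 (R 4.3.3) fitted 1 mean per group over all 10 samples, with empirical Bayes variances and a trend (5 residual degrees of freedom, 8.02 in total). P values were adjusted by Benjamini-Hochberg over 24470 probe sets, with a threshold of 0.05. Steps were tested on simulated data. In gene lists each gene was read by its brightest probe set (cross-hybridizing types only where no other exists), and a list's summed signal is the log2 of its summed linear signals. All 8 genes were named, and others by list and test p, as paralogs or partners, or as nearest patterns. Members and the 23 lists were chosen with earlier results of these data known. Promoters came from RefSeq. Alternatives changed the normalization, the filter, the probe sets a gene has in the fit, the trend, the array weights, the samples fitted (the compared groups, the gallbladders, or all without 1 sample) and the replicate block. A lone sample left in a group was assumed to vary like the others. Python 3.11.15, pandas 2.3.3 and matplotlib 3.10.9 made the tables and figures.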

Additional observations from a re-analysis of the deposited data

How the results depend on the processing

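With cystic duct set against wild type gallbladder in ICR, 5 of the 8 genes were called. With 1 probe set a gene 4 were called, and Pmch was not bright enough to be tested. The count was 2 with the filter at the 50th percentile, 0 with array weights and 0 with only the compared groups (limma; 5 at an unadjusted p under 0.05 in each of the last pair), and 1 to 8 when each sample was left out. All probe sets called lower, 1746, became 0 with array weights and 0 with only the compared groups (1847 and 1972 at an unadjusted p under 0.05) and 406 to 7010 when each sample was left out. Adjusted p over the alternatives ranged from 0.00229 to 0.415 for Pmch, 0.00085 to 0.361 for Adamdec1, 0.000221 to 0.292 for Cox7a1, 0.000562 to 0.331 for S100g and 0.015 to 0.510 for Nepn. Jakmip2 was the only one of the 8 to change sign there, at 1.44 without cystic duct sample 1 and -1.86 without cystic duct sample 2.

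With cystic duct set against Sox17+/- gallbladder, 0 of the 8 were called in every alternative that kept all samples, and 0 to 5 when each was left out. Cyp2f2 stood at 1.30 without cystic duct sample 2 and -1.34 without sample 1. All probe sets called, 1075, became 481 as deposited, 675 with the replicate block, 0 with array weights and 0 with only the compared groups (1835 and 2117 at an unadjusted p under 0.05), and 0 to 11111 when each sample was left out.

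Between strains in wild type gallbladder, the count of 1 became 0 at the 50th percentile filter, 0 with 1 probe set a gene, 0 with the replicate block, 3 with only the compared groups, 2 with the 8 gallbladder samples alone, and 0 to 2 when each sample was left out. All probe sets called, 651, became 17 with 1 probe set a gene, 35 with the replicate block, 3616 with array weights, 1990 with only the compared groups, 2502 with the 8 gallbladder samples alone and 9 to 2518 when each sample was left out. For the difference of the Sox17+/- effects, 0 of the 8 were called throughout, and 0 to 371 probe sets when each sample was left out (371 without ICR wild type sample 2). The causes of these changes were not tested. At the 50th percentile filter only Mgam, Adamdec1 and Cox7a1 of the 8 were bright enough to be tested.

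The titles number the replicates, but no label says that a number marks a shared litter or batch, and same-numbered samples of the compared groups deviated together at r = 0.071 to 0.39 over 2 numbers a strain. With the replicate block, 4 of the 8 passed in cystic duct against wild type gallbladder (S100g at adjusted p = 0.0792), and Nepn between strains stood at 0.0995 (limma).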

Other observations

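Lists of further tissues were read in cystic duct against wild type gallbladder of ICR, each with limma at an adjusted p under 0.05. Of 8 mesothelial genes, 2 fell (Krt19 at -1.15 and Msln, which encodes mesothelin, at -0.86), with a median of -0.59. Of 6 cardiac genes, 1 fell (Tnnt2, cardiac troponin T, at -3.74), and of 5 brown fat genes 1 fell (Fabp4, a fatty acid carrier, at -1.52). Of 11 leukocyte genes, 1 fell (Mrc1, the macrophage mannose receptor, at -0.71), and of 8 endothelial genes 1 fell (Tek, the angiopoietin receptor, at -0.999). None of the 10 skeletal muscle, 6 pancreas or 3 JAKMIP and GABA-B genes passed, with medians of -0.06, 0.03 and -0.15. Of 11 fetal stomach genes, 1 rose, the gastric protease gene Ctse at 2.48, and 0 fell. Ctse also stood at 1.39 in ICR and 0.87 in B6 between Sox17+/- and wild type gallbladder.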
